A study of Homo sapiens with 6 samples.

Results

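The integrated stress response transcription core, as taken here, consisted of 10 genes: the bZIP transcription factors ATF4, ATF5, ATF3, DDIT3 (which encodes CHOP), CEBPB and CEBPG, and the stress effectors PPP1R15A, DDIT4, SESN2 and ASNS. They were taken by symbol from the 36459 gene symbols of the count table, where each had 1 row, and the list was drawn up with earlier results of these data known. All 10 passed the filter on low counts and were among the 14626 genes tested. The ATF4 and DDIT3 rows of the transcript table were followed as well, and so were the main transcripts of the other 8 genes.

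RNA was sequenced from PC9 cells, an established human non-small cell lung cancer line. The parental group (PC9) had 3 libraries from 3 independent cultures without drug. The persister group (PSPC9) had 3 libraries, pooled from 9 independently grown cultures, of the cells that remained after 6 days in 15 µM erlotinib, an EGFR kinase inhibitor. The groups thus differed both in the presence of the drug and in the selection for surviving cells, and these cannot be told apart here. Both groups come from 1 cell line, no vehicle-treated or drug-withdrawn library was analysed here, and a p-value measures only the spread between these cultures and pools.

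The libraries held between 29476725 and 34893782 gene counts, and libraries of 1 group differed by more than sampling noise, so all 6 were used. All 7 epithelial markers checked were present, with a summed level, in counts scaled to library size (CPM), of 8145 to 8641 CPM in PC9 and 6835 to 7179 CPM in PSPC9. All 7 passed the limit of the test used below, in different directions: KRT8, KRT18, KRT19 and EPCAM were lower in PSPC9, at fold changes of 0.490 to 0.880, and KRT7, CDH1 and EGFR higher, at 1.37 to 1.52. Of 13 markers of immune, endothelial, stromal and red blood cells, 9 were under 1 CPM in every library, CD3E, COL3A1 and HBB were at 0 throughout, and the summed level was 93.6 to 95.6 CPM in PC9 and 49.3 to 56.0 CPM in PSPC9. Most of that fall was CD68, a macrophage and lysosomal marker, from 74.8 ± 0.912 to 21.1 ± 1.62 CPM (SD, n = 3). PECAM1 also fell, from 4.37 ± 0.394 to 0.214 ± 0.0873 CPM, while COL1A1, a collagen of stromal cells, rose from 10.2 ± 0.340 to 28.3 ± 1.79 CPM. Mitochondrially encoded genes took 1.90% to 3.37% of the counts in PC9, highest in PC9 replicate 1, and 3.39% to 3.96% in PSPC9. The part of these shifts in the results below was not tested.

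The integrated stress response begins with 4 kinases, PERK, GCN2, PKR and HRI, each of which senses a different stress and phosphorylates the translation factor eIF2 on its alpha subunit. General translation initiation then falls, while messages such as that of ATF4 are translated better because of short reading frames in their 5′ leaders. ATF4 dimerizes with other bZIP factors, among them members of the C/EBP family, and activates genes of amino acid supply and stress adaptation together with ATF3, CHOP and PPP1R15A, which brings a phosphatase back to eIF2. Transcript levels therefore follow the response only in RNA, where synthesis and decay cannot be told apart. Phosphorylation of eIF2 and protein levels were not analysed here.

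Of the 10 genes, 9 were higher in PSPC9 and 0 were lower at an adjusted p under 0.01 (quasi-likelihood test of edgeR, Benjamini-Hochberg adjustment over all genes tested). Over all genes tested, 28.7% were higher and 28.1% lower by the same rule, so a call by itself was common in this comparison. At an added limit of a fold change above 2, 5 of the 10 were higher (SESN2, ATF3, DDIT3, ASNS and CEBPG), against 5.65% of all genes. The median log2 fold change of the 10 was 0.99, and that of all genes tested was -0.0061. At an unadjusted p under 0.05 the count of lower genes was also 0, and DESeq2 and limma voom each gave 0 as well. In 9 of the 10 genes every PSPC9 library lay above every PC9 library, which held for 35.5% of all genes tested, and in none did every PSPC9 library lie below, which held for 35.7%. In bulk RNA, a change in the RNA of each cell and a change in the share of cells that express a gene cannot be told apart.

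**Figure D1:**
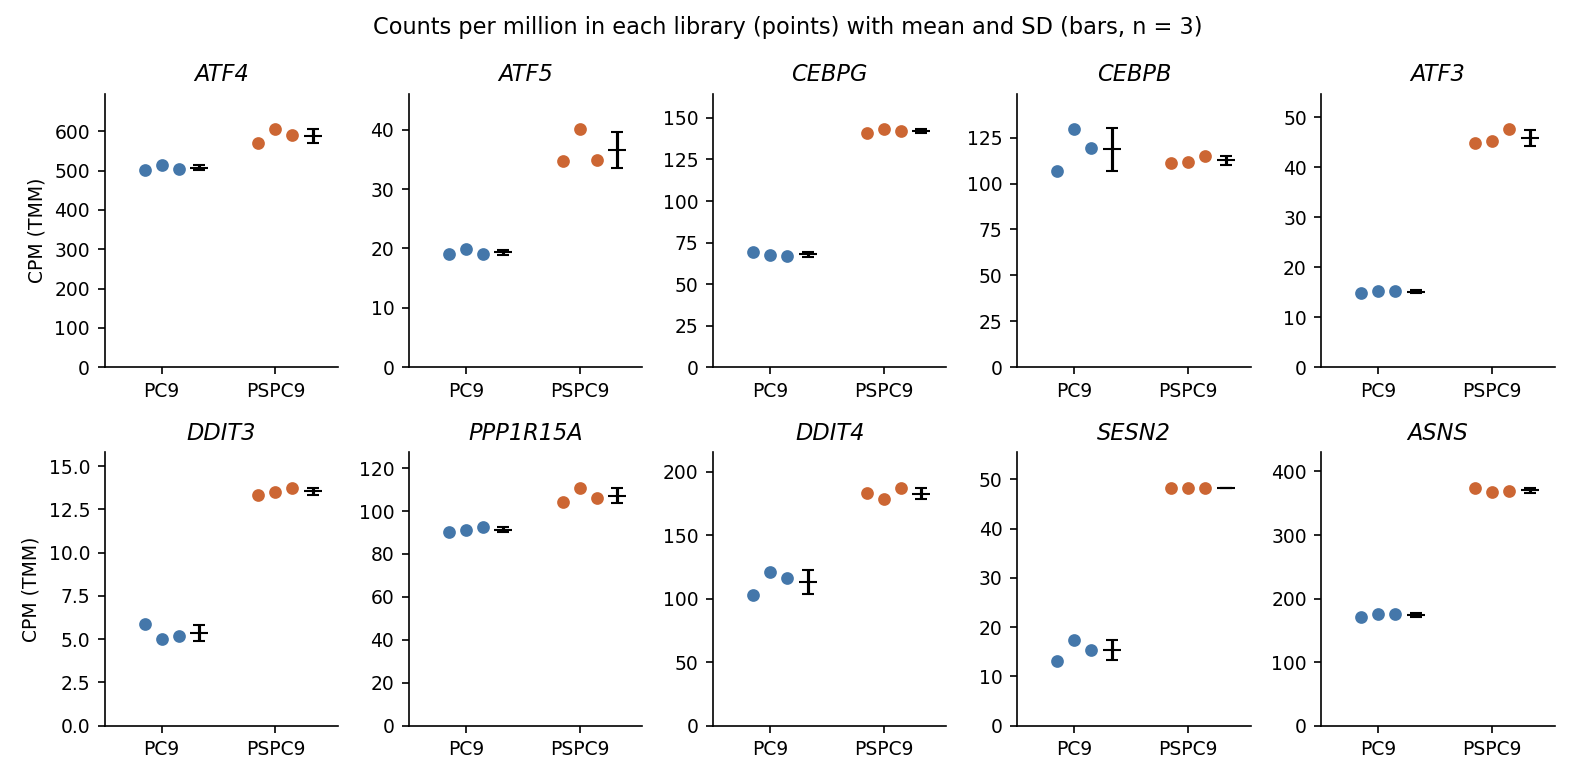
Levels (TMM-normalized CPM, vertical axes from 0) of the 10 genes in each of the 3 PC9 and 3 PSPC9 libraries (points), with the group mean and SD beside them. The groups are apart in every panel except that of CEBPB, and the gap is narrow relative to the level for ATF4 and PPP1R15A.

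ATF4 (ENSG00000128272, chr22:39519695-39522683 of GRCh38, plus strand) encodes the central factor of the response. It was the most abundant of the 10 genes, and apart from CEBPB it moved least. Its level was 501.9, 514.2 and 505.4 CPM in PC9 replicates 1 to 3 and 570.1, 605.5 and 590.2 CPM in PSPC9 replicates 1 to 3. The groups did not overlap, but the step between them was small, from 507 ± 6.32 to 589 ± 17.7 CPM (SD, n = 3), a fold change of 1.16 (95% interval 1.10 to 1.22). The log2 fold change was 0.21 (adjusted p = 0.000242 by edgeR, standard error 0.0348), and by p-value ATF4 ranked 5034 of the 14626 genes.

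The ATF4 message is known for translational control through upstream reading frames, and whether the frames listed here are those frames was not tested. The leader of the transcript that held nearly all its counts, ATF4-202 (chr22:39520576-39522668), is 364 bases long in GENCODE 44. It has 6 ATG triplets before the coding start, 4 of them in frames that end within the leader and 2 in a frame that ends 4 bases past the coding start. The annotated versions of ATF4-202, DDIT3-201 and CEBPB-201 are not the versions that were counted. Whether their leaders or starts differ between versions was not tested. The windows below are from the GENCODE 44 transcripts, 5′ to 3′, with the upstream ATG in capitals, for the genes of the core in which a frame runs past the coding start. Not every upstream ATG of ATF4-202 and DDIT3-201 is printed, and the others are given by position after the windows.
ATF4-202, ATG at base 73: gccaccATGgcgtattagggg
ATF4-202, ATG at base 177: catggcATGgccgatctagag
ATF5-201, ATG at base 70: ccggccATGgctctgtagcct
ATF5-201, ATG at base 192: gcagccATGgagtcttccact
DDIT3-201, ATG at base 35: cgtatcATGttaaagatgagc
DDIT3-201, ATG at base 146: aagcagATGtgcttttccaga

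Positions are counted from 1 at the first base of the transcript. In ATF4-202 the frame at base 73 has 3 codons and that at base 177 has 63. The ATG triplets of ATF4-202 not printed, at bases 11, 172, 216 and 244, open frames of 1, 5, 50 and 5 codons. ATF5-201 has a frame of 3 codons followed by one of 59 that ends 56 bases past the coding start. The ATG of DDIT3-201 not printed, at base 44, opens a frame of 31 codons that ends in the leader. In DDIT3-201 the frame at base 35 has 34 codons and ends in the leader, while that at base 146 has 73 codons and ends 190 bases past the coding start. PPP1R15A-201 has 2 upstream ATG triplets, the second opening a frame of 26 codons, SESN2-201 and CEBPG-201 have 1 each, and the leaders used for ATF3, DDIT4, ASNS and CEBPB have none. An upstream ATG was thus found in 6 of the 10 leaders, and in 43.0% of the 12956 leaders of tested genes. A frame that runs past the coding start was found in 3 of the 10 and in 14.6% of those leaders. These are matches in annotated sequence, and translation was not measured here.

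ATF5 (ENSG00000169136, chr19:49928702-49933935, plus strand), a factor related to ATF4 and also under translational control, rose more than ATF4 did. Its level was 19.1, 19.9 and 19.1 CPM in PC9 and 34.7, 40.1 and 35.0 CPM in PSPC9. All 3 PSPC9 libraries were well above the PC9 libraries, with replicate 2 the highest. The fold change was 1.89 (95% interval 1.72 to 2.09), a log2 fold change of 0.92 (adjusted p = 3.37e-07 by edgeR). The lower end of its 95% interval on the log2 scale, 0.78, was above the upper end of that of ATF4, 0.29. ATF5 overlaps NUP62 on the other strand over 1063 bases, and since the strand setting of the counting is not given in the sources used here, reads of that stretch cannot be told apart.

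CEBPG (ENSG00000153879, chr19:33373685-33382686, plus strand), which encodes C/EBP gamma, a dimerization partner of ATF4, showed one of the tightest differences of the core. It had 69.4, 67.6 and 66.8 CPM in PC9 and 141.1, 143.2 and 142.1 CPM in PSPC9. The spread within a group, at an SD of 1.36 and 1.08 CPM, was far smaller than the step between groups. The fold change was 2.09 (95% interval 1.98 to 2.21, adjusted p = 1.40e-09 by edgeR).

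CEBPB (ENSG00000172216, chr20:50190830-50192668, plus strand), which encodes C/EBP beta, another bZIP partner in stress and inflammatory transcription, was the exception. Its level was 106.7, 129.6 and 119.3 CPM in PC9 and 111.1, 111.5 and 115.2 CPM in PSPC9. The PSPC9 libraries lay inside the range of the PC9 libraries, whose replicates 1 and 2 marked its ends. The log2 fold change was -0.074 (95% interval -0.21 to 0.062, adjusted p = 0.308 by edgeR), so a fold change between 0.865 and 1.04 was within the interval. CEBPB-AS1 overlaps CEBPB on the other strand but had a count of 0.

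ATF3 (ENSG00000162772, chr1:212565334-212620777, plus strand), a stress-inducible factor of the same family, and DDIT3 (ENSG00000175197, chr12:57516588-57521737, minus strand), which encodes the ATF4-induced factor CHOP, rose more than the other factors. ATF3 was at 14.8, 15.2 and 15.3 CPM in PC9 and 44.7, 45.1 and 47.6 CPM in PSPC9. Its groups were far apart, and the fold change was 3.04 (95% interval 2.81 to 3.28), a log2 fold change of 1.60 (adjusted p = 6.94e-10 by edgeR, standard error 0.0502).

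DDIT3 had the fewest counts of the core. It had 202, 171 and 174 estimated counts in PC9 replicates 1 to 3 and 390, 425 and 470 in PSPC9 replicates 1 to 3, or 5.87, 5.02 and 5.17 CPM against 13.4, 13.5 and 13.8 CPM. The lowest PSPC9 library was above the highest PC9 library by more than the range of either group. The log2 fold change was 1.34 (adjusted p = 1.10e-07 by edgeR, standard error 0.0809), a fold change of 2.53 with a 95% interval of 2.23 to 2.86. DDIT3 overlaps MARS1 over 982 bases and MBD6 over 1028 bases, both on the other strand and both with far more counts. These are overlaps of gene spans, and the span of DDIT3 reaches 57521737 only through DDIT3-206, which had a count of 0. Whether sequence of the counted DDIT3 transcripts lies in each overlap was not tested. Reads of a shared stretch could not be told apart.

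PPP1R15A (ENSG00000087074, chr19:48872212-48876059, plus strand) encodes GADD34, the inducible subunit that directs protein phosphatase 1 to eIF2 and so closes the feedback loop. Its level was 90.1, 91.3 and 92.4 CPM in PC9 and 104.3, 110.9 and 106.2 CPM in PSPC9. The groups did not overlap, but as for ATF4 the step was small, a fold change of 1.17 (95% interval 1.11 to 1.25). The log2 fold change was 0.23 (adjusted p = 0.000314 by edgeR) against 1.34 for DDIT3.

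The remaining effectors act in mTORC1 control and amino acid supply. DDIT4 (ENSG00000168209, chr10:72273919-72276036, plus strand), which encodes REDD1, an inhibitor of mTORC1, was at 102.7, 121.4 and 116.1 CPM in PC9 and 183.1, 178.3 and 187.6 CPM in PSPC9. The PC9 libraries spread more than the PSPC9 libraries, which were pools of cultures, and the groups stayed apart. The fold change of DDIT4 was 1.61 (95% interval 1.48 to 1.76, adjusted p = 1.22e-06 by edgeR).

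SESN2 (ENSG00000130766, chr1:28259518-28282491, plus strand) encodes Sestrin 2, a leucine sensor that restrains mTORC1, and had the largest log2 fold change of the core. It was at 13.2, 17.3 and 15.4 CPM in PC9 and 48.2, 48.2 and 48.3 CPM in PSPC9. The PC9 libraries varied, while the PSPC9 libraries, which were pools of cultures, were nearly equal. With 1406 to 1650 counts the PSPC9 libraries lay closer together than counting error alone would leave them, so their SD does not measure precision. The role of pooling was not tested. The log2 fold change was 1.65 (adjusted p = 1.57e-08 by edgeR, standard error 0.0776), a fold change of 3.15 with a 95% interval of 2.80 to 3.55. Its interval overlapped that of ATF3, so their order was not resolved.

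ASNS (ENSG00000070669, chr7:97851677-97872542, minus strand) encodes asparagine synthetase, a classical target of ATF4 under amino acid shortage. Its level was 171.1, 176.1 and 175.1 CPM in PC9 and 374.5, 367.3 and 369.0 CPM in PSPC9. The groups were far apart and each was tight, with a fold change of 2.13 (95% interval 2.02 to 2.24). The log2 fold change was 1.09 (standard error 0.0332), with the smallest adjusted p of the core, 5.84e-10 in the edgeR test.

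**Figure D2:**
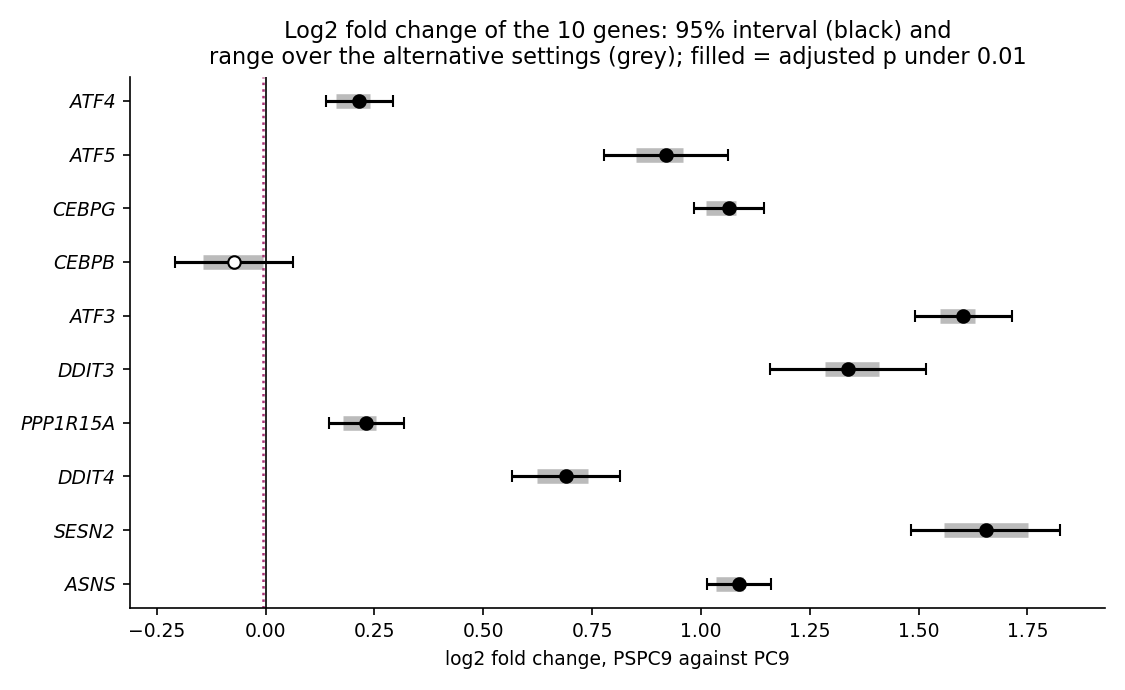
Log2 fold change of each gene, PSPC9 against PC9 (points; filled where the edgeR adjusted p was under 0.01), with its 95% interval (black bars) and the range over 16 alternative settings (grey). The dotted line is the median of all genes tested, -0.0061, and CEBPB alone has an interval that reaches across 0.

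The 10 genes therefore formed a graded series rather than a common shift. SESN2, ATF3 and DDIT3 had log2 fold changes of 1.34 to 1.65, ASNS, CEBPG and ATF5 of 0.92 to 1.09, and DDIT4 of 0.69. ATF4 and PPP1R15A followed at 0.21 and 0.23, and CEBPB did not pass the limit. Within PC9, replicate 1 was the lowest and replicate 2 the highest library for ATF4, DDIT4, SESN2, ASNS and CEBPB, and replicate 1 was also the library with the highest mitochondrial share. Without PC9 replicate 1 the log2 fold changes of DDIT4, SESN2 and CEBPB were 0.62, 1.56 and -0.14, and without PC9 replicate 2 they were 0.74, 1.75 and -0.0051. None of these steps changed a call, though CEBPB came nearest to the limit without PC9 replicate 1 (adjusted p = 0.0124 by edgeR).

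Levels of different genes can be compared only per length, and for this the CPM were divided by the length in kilobases of each gene's transcripts, weighted by their counts. On this scale ATF4 stood at 340 ± 4.24 CPM per kilobase (SD, n = 3) in PC9 and 395 ± 11.9 in PSPC9, and ASNS came second at 89.6 ± 1.36 and 190.5 ± 1.92. DDIT4 and CEBPB, at 65.0 ± 5.51 and 64.4 ± 6.22 CPM per kilobase, did not differ beyond their spread in PC9, but in PSPC9 they did, at 104.9 ± 2.65 and 61.2 ± 1.25. PPP1R15A had 38.7 ± 0.499 and 45.4 ± 1.43 CPM per kilobase in PC9 and PSPC9, and CEBPG 19.0 ± 0.381 and 39.8 ± 0.301, so that the distance between this pair narrowed.

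The lower end of the order held the stress-inducible factors. ATF5 had 9.97 ± 0.233 CPM per kilobase in PC9 and 18.9 ± 1.56 in PSPC9, and ATF3 had 8.17 ± 0.160 and 24.8 ± 0.832, so this pair changed places. DDIT3, at 5.89 ± 0.498 and 14.9 ± 0.220 CPM per kilobase, and SESN2, at 4.42 ± 0.590 and 13.9 ± 0.0202, were lowest in both groups. Even after its rise ATF3 stood far below ATF4 in PSPC9. For SESN2 the annotation gave a length for only 1 of 2 transcript entries, and its place rests on that length.

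**Figure D3:**
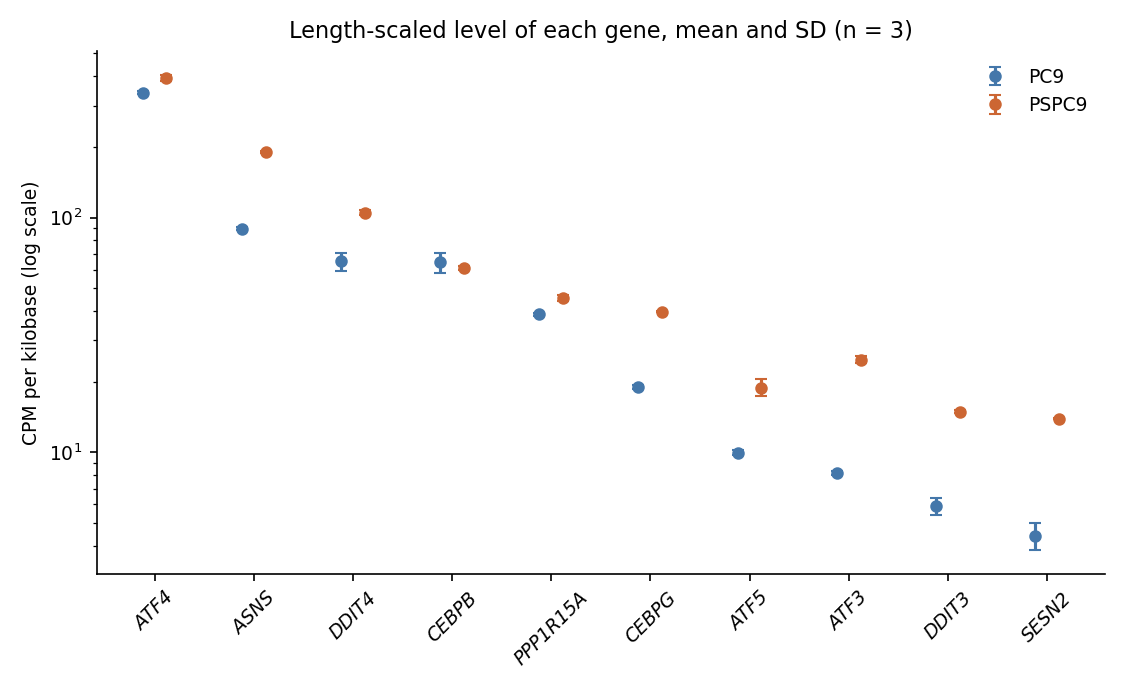
Level of each gene per kilobase of transcript (CPM per kilobase, logarithmic axis), mean and SD of 3 libraries, with genes ordered by their PC9 level. ATF4 is highest in both groups, and the rise of ATF3, DDIT3 and SESN2 starts from the lowest levels.

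By the Euclidean distance over the 6 libraries between log2 CPM relative to each gene's PC9 mean, the genes most like ATF4 among 12283 were TRIM26, PDHA1, NELFCD, UBQLN4 and NFE2L3, at distances of 0.0255 to 0.0422. Their log2 fold changes were between 0.21 and 0.23. PPP1R15A ranked 10 on this measure, at a distance of 0.0463, whereas ASNS, CEBPG, DDIT3, ATF3 and SESN2 ranked 10594 or beyond. None of the 5 is on the stress response lists used here.

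Sequence upstream of the core was searched because ATF4 with C/EBP partners binds the C/EBP-ATF response element, written TGATGNAA, and CREB and ATF dimers bind the cyclic AMP response element, TGACGTCA. Both strands of the 500 bases before the start of the most abundant coding transcript of each gene were read. The matches are shown with 10 bases on either side, 5′ to 3′ on the strand of the gene, with the motif in capitals.
ASNS, chr7:97872459-97872486, minus strand: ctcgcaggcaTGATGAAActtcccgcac
ATF3, chr1:212608548-212608575, plus strand: ctccccgaacTTGCATCAccagtgcccc
ATF3, chr1:212608730-212608757, plus strand: ataaaaggggTGATGCAAcgctctccaa
DDIT3, chr12:57520803-57520830, minus strand: ttgccaaacaTTGCATCAtccccgcccc
SESN2, chr1:28259212-28259239, plus strand: tgaagtccctTTTCATCAcgcaacccta
PPP1R15A, chr19:48872353-48872380, plus strand: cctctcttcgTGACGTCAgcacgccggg

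The coordinates are those of GRCh38. Sequence around the matches of ASNS and PPP1R15A overlaps an annotated untranslated region of the same gene, outside the transcript used here. The first base of the match lay 40 bases before the start for ASNS, 203 and 21 bases for ATF3, 306 for DDIT3 and 296 for SESN2, and the TGACGTCA of PPP1R15A lay 58 bases before its start. TGATGNAA was found in 4 of the 10 windows and in 3.63% of 13182 windows of tested genes, and TGACGTCA in 1 of 10 and in 3.17%. The 4 genes with TGATGNAA in this window were among the 5 with a fold change above 2. The core was chosen with earlier results of these data known, so this overlap is not independent support. A link between a match and the rise was not tested. CEBPG, the remaining gene of those 5, has no match in this window. It has a match in the RefSeq promoter of another start (GRCh38.p14), 42 bases before that start:
CEBPG, chr19:33374061-33374088, plus strand: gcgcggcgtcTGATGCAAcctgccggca

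The 10 genes have 18 entries among the RefSeq promoters, of which 3 held TGATGNAA (1 each of ASNS, ATF3 and CEBPG), against 3.62% of 35116 entries. Counted by gene, these were 3 of 10, against 4.46% of 27305 genes with at least 1 matching entry. The RefSeq promoters reach less far before the start than the 500 bases read above, so the counts of 4 and 3 of the 10 genes are from unlike windows. The ATF3 match in RefSeq is not one printed above, but lies at chr1:212565206-212565233, 191 bases before another start. Which windows hold a match thus depends on the start and the window length used. A match is a run of letters and not a measured binding site, and binding was not analysed here.

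At the level of transcripts, 12 of the 35 core transcripts tested were higher in PSPC9 and 0 were lower (edgeR's quasi-likelihood test over 54499 transcripts, adjusted p under 0.01), against 3.89% higher and 3.91% lower over all transcripts. At an unadjusted p under 0.05 the count lower was also 0. Kallisto divides reads that match several transcripts by estimation. The count of 12 fell to between 3 and 9 when 1 library was left out, and the cause of this fall was not tested. It was 3 without PC9 replicate 3, 6 without any 1 of the PSPC9 libraries, 8 without PC9 replicate 2 and 9 without PC9 replicate 1.

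ATF4 was expressed almost wholly as ATF4-202, which took 99.0% ± 0.232 of its counts in PC9 and 99.1% ± 0.119 in PSPC9 (SD, n = 3). This transcript was at 499.5, 518.3 and 510.6 CPM in PC9 and 562.6, 597.1 and 584.2 CPM in PSPC9. The groups did not overlap, as for the gene, but the log2 fold change of 0.19 (standard error 0.0324) had an edgeR adjusted p of 0.0127 over all transcripts and did not pass the limit. With only transcripts of a mean count of at least 50 it passed, at 0.00551. ATF4-201 and ATF4-203 held 0.655% and 0.299% of the counts in PC9 and 0.549% and 0.349% in PSPC9, with log2 fold changes of -0.066 and 0.43 and edgeR adjusted p-values of 0.894 and 0.590.

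DDIT3 was spread over 3 transcripts that encode the protein. DDIT3-201 took 67.9% ± 14.0 of its counts in PC9 and 57.4% ± 9.09 in PSPC9, at 3.42, 3.17 and 4.41 CPM against 6.41, 7.76 and 9.12 CPM. DDIT3-205 was at 1.14, 1.41 and 0.544 CPM in PC9 and 2.73, 2.91 and 2.83 CPM in PSPC9. DDIT3-202 was at 1.35, 0.359 and 0.332 CPM in PC9 and 4.09, 2.79 and 1.40 CPM in PSPC9.

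In each of these 3 transcripts the lowest PSPC9 library was above the highest PC9 library, for DDIT3-202 by a small margin. None passed the limit by itself: DDIT3-201 had a log2 fold change of 1.08 (adjusted p = 0.0188 by edgeR), DDIT3-205 of 1.45 (0.0529) and DDIT3-202 of 2.01 (0.120). The call for DDIT3 thus rests on the sum over its transcripts. DDIT3-203 and DDIT3-204 were too low to be tested, at no more than 0.351 CPM in any library, and DDIT3-206 had a count of 0 throughout. A count of 0 allows, for counting error alone, a share of the DDIT3 count of up to 1.75% in PC9 and 0.769% in PSPC9.

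The main transcripts of the other factors followed their genes. ATF3-202, with 85.4% of the ATF3 count in PC9, had a log2 fold change of 1.60 (adjusted p = 0.000336 by edgeR), and ATF3-208, a retained-intron transcript, one of 1.90 (0.0133). ATF5-201, with 85.5% of the ATF5 count, had a log2 fold change of 0.87 (adjusted p = 0.00153 by edgeR), and ATF5-202 one of 1.17 (0.0282). CEBPG-201 rose by 0.96 on the log2 scale (adjusted p = 0.00201 by edgeR). CEBPG-203, labelled as a target of nonsense-mediated decay, had a log2 fold change of 1.28 (0.0179) and CEBPG-202 one of 1.12 (0.0517). CEBPB-201, the only CEBPB transcript, had a log2 fold change of -0.10 (0.479).

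Among the effectors, DDIT4-201 held 99.7% of its gene's count in PC9 and had a log2 fold change of 0.66 (adjusted p = 0.00246 by edgeR). PPP1R15A-201 held 99.6% and had a log2 fold change of 0.19, which did not pass over all transcripts (0.0228). The minor PPP1R15A-202, named after its values were seen, did pass, with a log2 fold change of 2.05 (adjusted p = 0.00807 by edgeR) and 0.397% of the gene's count in PC9 and 1.43% in PSPC9. SESN2-201 had a log2 fold change of 1.63 (adjusted p = 0.000543 by edgeR). A second SESN2 entry, not in GENCODE 44, had the same count in each of the 6 libraries, and the SESN2 gene value was the sum of the pair.

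ASNS had 13 tested transcripts, of which 6 were higher. ASNS-202 rose by 1.35 on the log2 scale (adjusted p = 8.56e-05 by edgeR), ASNS-214 by 0.83 (0.00249) and ASNS-201 by 0.62 (0.00211). ASNS-209 had the highest total over the 6 libraries, which is why its start and leader were used above, and a log2 fold change of 1.30 (0.0150). In PC9 its mean of 44.5 CPM was close to the 44.6 CPM of ASNS-201, and in PC9 replicates 2 and 3 it lay below ASNS-201 and ASNS-214. ASNS-205 varied widely within both groups, with 1.46, 20.1 and 23.2 CPM in PC9 and 47.4, 15.9 and 47.6 CPM in PSPC9, so that its groups overlapped (0.429).

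Usage, the share of each transcript within its gene, was tested with edgeR's diffSpliceDGE. Of the 8 core genes with more than 1 tested transcript, 0 passed an adjusted Simes p of 0.01, and 0 had an unadjusted p under 0.05, against 1.88% of 10545 genes past the adjusted limit. The smallest unadjusted p was that of PPP1R15A, 0.0711 (adjusted p = 0.831 by edgeR).

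**Figure D4:**
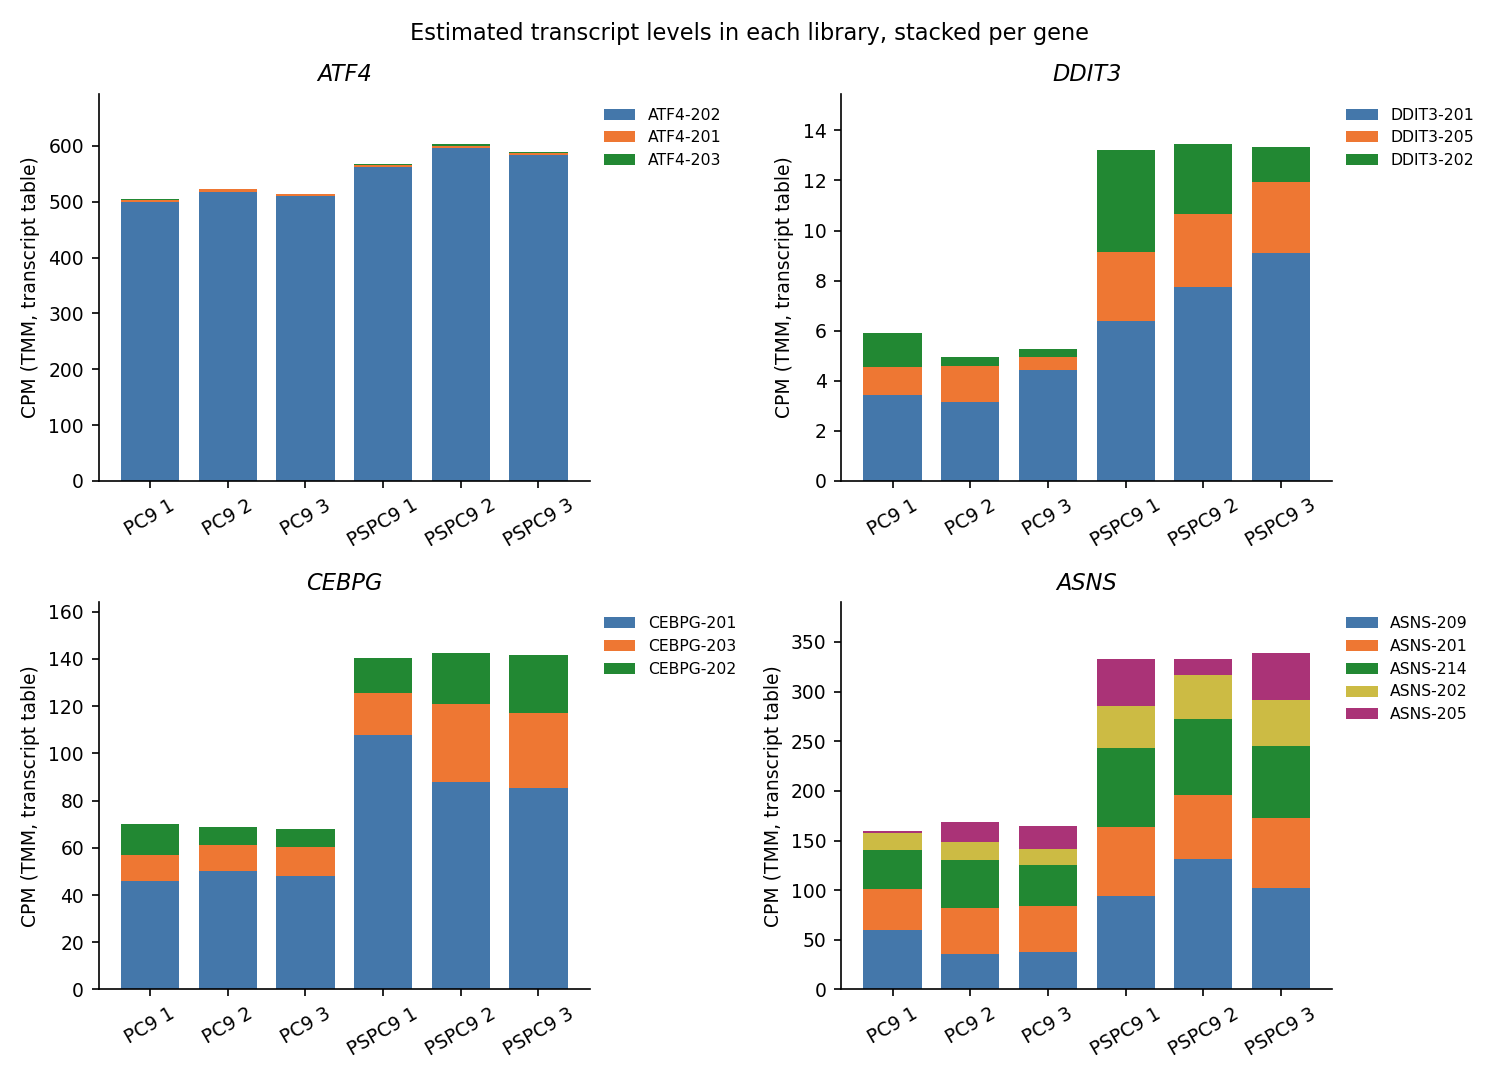
Estimated level (CPM, TMM-normalized within the transcript table) of the named transcripts of ATF4, DDIT3, CEBPG and ASNS in each library, stacked per gene. ATF4-202 fills nearly the whole ATF4 bar, and the division of the DDIT3, CEBPG and ASNS bars varies between replicates more than their height.

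The kinases that start the response changed little in RNA. EIF2AK1 (HRI, which senses heme and mitochondrial stress) had a log2 fold change of -0.0015 (adjusted p = 0.974 by edgeR), EIF2AK2 (PKR, double-stranded RNA) of -0.062 (0.314) and EIF2AK4 (GCN2, uncharged tRNA) of 0.026 (0.536). EIF2AK3 (PERK, the endoplasmic reticulum sensor) had 21.6, 19.5 and 21.6 CPM in PC9 and 23.7, 23.3 and 23.5 CPM in PSPC9. Its groups did not overlap, and its log2 fold change was 0.17 (adjusted p = 0.0203 by edgeR), which did not pass.

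Of the 8 kinases and regulators, 1 was higher and 2 were lower, with a median log2 fold change of -0.032. GCN1, an activator of GCN2, rose from 133.5 ± 7.38 to 172.4 ± 3.27 CPM (SD, n = 3; adjusted p = 2.53e-05 by edgeR). OMA1, the mitochondrial protease that cleaves DELE1, fell from 33.9 ± 1.30 to 19.6 ± 0.435 CPM (adjusted p = 1.95e-07 by edgeR), and DELE1, whose cleaved form activates HRI, fell from 66.2 ± 1.22 to 53.4 ± 0.572 CPM (adjusted p = 3.76e-05 by edgeR). Both genes of the mitochondrial relay to HRI were thus lower in RNA, and the relay itself was not measured here.

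For the subunits of eIF2, its exchange factor eIF2B and the constitutive phosphatase subunit, 4 of 9 genes were higher and 3 lower, with a median log2 fold change of 0.17. Over all genes 28.7% were higher and 28.1% lower, and these shares, near which 3 of 9 lies, apply to each list given here. PPP1R15B, the constitutive counterpart of PPP1R15A, was at 108.5, 102.2 and 105.0 CPM in PC9 and 165.7, 159.4 and 166.1 CPM in PSPC9. Its groups were far apart, and its log2 fold change of 0.64 (95% interval not overlapping that of PPP1R15A, adjusted p = 1.17e-07 by edgeR) exceeded the 0.23 of the inducible subunit. EIF2S1, the alpha subunit that the kinases phosphorylate, had a log2 fold change of 0.32 (adjusted p = 1.97e-05 by edgeR), EIF2S2 of 0.19 (0.00118) and EIF2S3 of -0.16 (0.00163). The count of 3 lower genes fell to 1 without PC9 replicate 3, PSPC9 replicate 1 or PSPC9 replicate 2, and to 0 without PSPC9 replicate 3.

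Other bZIP factors of the CREB, ATF and C/EBP families moved in both directions. Of 20 listed, 18 were tested, 9 were higher and 5 lower, with a median log2 fold change of 0.17, and the share that was lower was near that of all genes (28.1%). With upper-quartile or library-size scaling 6 were higher and 6 lower, and without PC9 replicate 3 or PSPC9 replicate 2 the count higher was also 6. CREB3L4 fell from 19.4 ± 1.43 to 6.92 ± 0.449 CPM (adjusted p = 4.90e-08 by edgeR), CEBPD from 22.2 ± 1.46 to 10.3 ± 0.851 CPM (3.33e-07) and BATF from 28.2 ± 0.530 to 15.6 ± 0.977 CPM (2.96e-07). JDP2, a repressor that can bind cyclic AMP response elements, rose from 141.8 ± 9.08 to 207.7 ± 1.81 CPM (1.56e-06). Within the C/EBP family CEBPG was therefore higher, CEBPD lower and CEBPB not past the limit. CEBPA did not pass either (adjusted p = 0.155 by edgeR), and CEBPE had a count of 0 and was not tested. Both were named after their values were seen.

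The paralogs of the effectors were expressed at low levels. DDIT4L rose from 1.65 ± 0.199 to 2.68 ± 0.0195 CPM (adjusted p = 0.00148 by edgeR). SESN3 fell from 2.36 ± 0.538 to 1.29 ± 0.145 CPM (0.00287), a call that was lost without PC9 replicate 1 (0.0109) or PSPC9 replicate 3 (0.0150). SESN1, a target of p53 and FOXO factors, had 7.64, 8.17 and 8.76 CPM in PC9 and 8.46, 7.02 and 7.75 CPM in PSPC9, and its groups overlapped (0.461). Neither of the other sestrins thus rose with SESN2.

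Of the other genes known as targets of ATF4 or CHOP, 13 of 14 were higher and 0 lower, against 28.7% and 28.1% of all genes, with a median log2 fold change of 1.25. This list was drawn up with earlier results of these data known, so its count is not independent support. The paper names CHAC1 and VLDLR among its top differentially expressed genes, from data that include these libraries. In edgeR, 0 of the 14 were lower also at an unadjusted p under 0.05, and DESeq2 gave 0. NUPR1, a stress-induced chromatin protein, was at 19.2, 19.1 and 17.4 CPM in PC9 and 59.3, 64.6 and 65.1 CPM in PSPC9, a log2 fold change of 1.76 (adjusted p = 1.01e-09 by edgeR). STC2, a secreted glycoprotein, was at 99.9, 109.5 and 108.0 CPM in PC9 and 254.5, 269.2 and 262.8 CPM in PSPC9, a log2 fold change of 1.31 (1.23e-09). For both genes the groups were far apart. CHAC1, which degrades glutathione, and VLDLR, a lipoprotein receptor, were the other genes of this list with the smallest p-values, at log2 fold changes of 2.71 and 2.04. The single gene not past the limit, named after its values were seen, was ERO1A, an oxidase of the endoplasmic reticulum (0.067, adjusted p = 0.218 by edgeR).

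Of 16 genes of the other arms of the unfolded protein response, 7 were higher and 2 lower, against 28.7% and 28.1% of all genes, with a median log2 fold change of 0.098. SEL1L, a part of the degradation machinery, rose by 0.98 on the log2 scale (adjusted p = 1.40e-08 by edgeR), HERPUD1 by 0.92 (1.90e-08), XBP1, the factor spliced by IRE1, by 0.77 (4.33e-07) and HSPA5, the chaperone BiP, by 0.53 (1.52e-07). The 2 lower genes, named after their values were seen, were MANF (-0.47, adjusted p = 5.13e-06 by edgeR) and EDEM1 (-0.27, 0.000447). None of the 16 was higher with a fold change above 2, a share near the 5.65% of all genes.

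**Figure D5:**
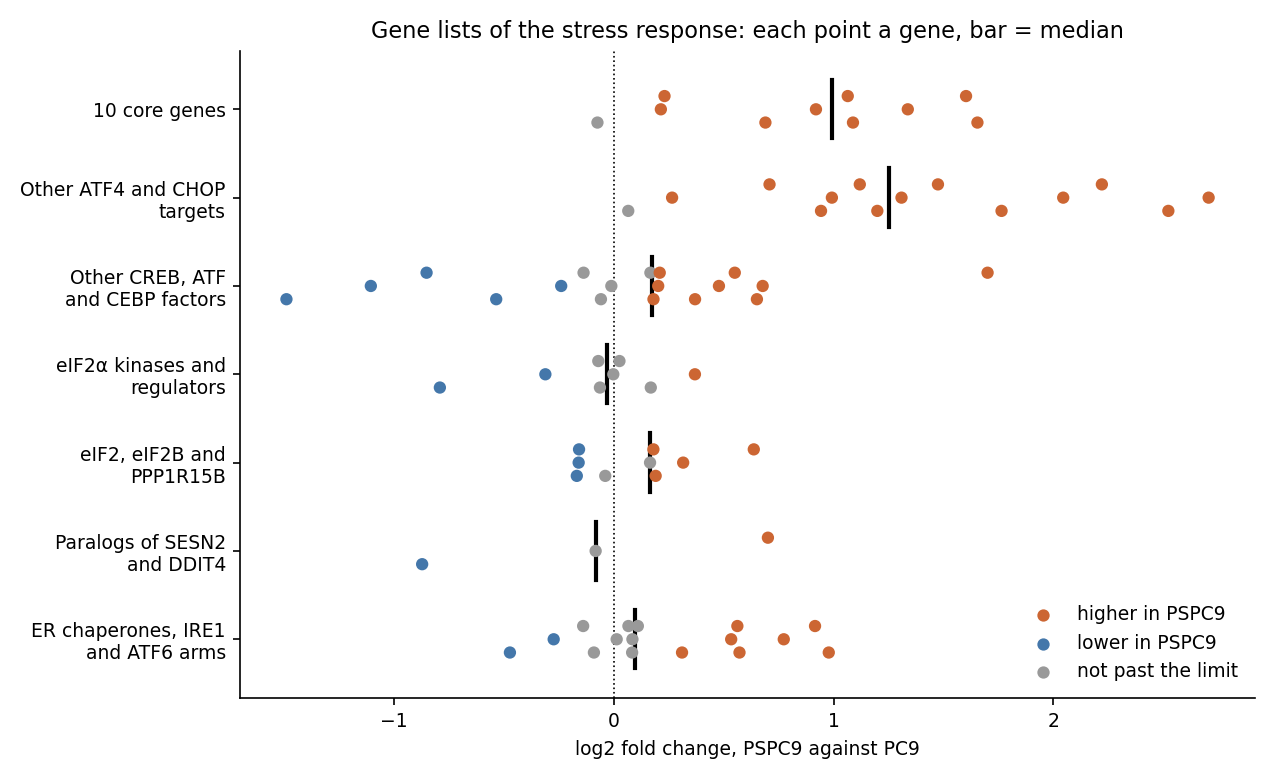
Log2 fold change of every tested gene of 7 lists, PSPC9 against PC9 (points, coloured by their call at an edgeR adjusted p under 0.01), with each list's median (black bars). The core and the other ATF4 and CHOP targets lie mostly to the right of 0, at medians of 0.99 and 1.25, and the kinases, eIF2 subunits and endoplasmic reticulum genes lie on both sides of 0.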

How the data were processed

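RNA was sequenced in 6 libraries of PC9 cells, 3 parental and 3 persister, grouped by their labels. The authors made poly-A libraries, used bases2fastq and FASTP for trimming and quality, quantified reads against the Ensembl transcriptome (GRCh38) by Kallisto 0.46.1, and deposited estimated counts as whole numbers, without normalization, per gene symbol and per transcript. Kallisto's uncertainty in dividing reads enters no test, and the library strand setting is not given in the sources used here.

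From these, CPM, fold changes and tests were computed in R 4.3.3 with edgeR 4.0.16. Filtering was by filterByExpr and normalization by TMM. The tests were glmQLFTest, PSPC9 against PC9 without a block, and diffSpliceDGE for usage, each over the whole table. P-values were adjusted by Benjamini-Hochberg, with 0.01 as the threshold. The standard error is the log2 fold change over the square root of F. With 3 libraries against 3, an exact permutation test cannot go below 0.1. At total counts of 29476725 to 34893782, libraries of 1 group differed by more than sampling noise. This did not hold for every gene, since the PSPC9 libraries of SESN2, with 1406 to 1650 counts, lay closer together than counting error would leave them. For genes with few counts, such as DDIT3 with 171 to 470 per library, counting error also limits the precision of group means. The scripts were tested on simulated data.

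Coordinates and transcripts are from GENCODE 44 (GRCh38), promoters also from RefSeq (GRCh38.p14). Of 188753 transcripts listed, 167067 were matched. Alternatives included voom from limma 3.58.1, DESeq2 1.42.0, other scalings, filters and limits, transcript sums, a replicate block, and each library left out. Replicate numbers were not used as pairs. Named were all 10 genes, all transcripts of ATF4 and DDIT3 and those of the others with at least 5% of the gene count in a group mean, the 4 kinases, PPP1R15B, the paralogs, the 4 genes with the smallest p-values of each other list, and the 5 genes most like ATF4 with a mean log2 CPM above 1 (prior count 2). The core genes and the lists were chosen with earlier results of these data known. Figures were drawn with matplotlib 3.10.9.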

Additional observations from a re-analysis of the deposited data

How the results depend on the processing

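The count of 9 higher core genes was the same under every alternative but 1, since 5 remained where a fold change above 2 was also asked for. No core gene changed direction or call on the adjusted p in 16 alternatives, and the log2 fold changes of ATF4 ran from 0.16 to 0.24, of PPP1R15A from 0.18 to 0.25 and of CEBPB from -0.14 to -0.0051. Other scalings moved the median of all genes by at most -0.053 on the log2 scale. With a fold change above 2 as an added limit, the counts of the lists became 0 higher and 0 lower for the kinases, 0 and 0 for eIF2 and eIF2B, 1 and 2 for the other bZIP factors, 0 and 0 for the paralogs and 0 and 0 for the endoplasmic reticulum genes. At a limit of 0.05 on the adjusted p, 2 kinase-list genes were higher, and 21 core transcripts were higher instead of 12. With 1 library left out, the lower genes of the eIF2 list ranged from 0 to 3, the lower paralogs from 0 to 1 and the higher core transcripts from 3 to 9. Values near 0 changed sign. EIF2AK1 was at 0.00172 with RLE size factors, 0.00269 with no filter, 0.00348 with DESeq2, 0.0217 without PC9 replicate 1, 0.0102 without PSPC9 replicate 1 and 0.00922 without PSPC9 replicate 3, within a range of -0.0208 to 0.0217 with 1 library left out. EIF2AK4 was at -0.0166 with upper-quartile and -0.0268 with library-size scaling. ATF4-203 was at -0.00705 without PSPC9 replicate 2, within -0.00705 to 0.70 with 1 library left out, and ATF4-201 at 0.0444 and 0.0176 without PC9 replicates 1 and 2, within -0.25 to 0.0444.

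Same-numbered libraries of the groups correlated at 0.124, 0.0236 and 0.0215 in their deviations from the group means, not all above 0.1, and the labels name no shared batch, so the numbers were not taken as pairs. PC9 replicate 2 correlated best with PSPC9 replicate 3, at 0.0971. With the replicate block the count of core genes stayed at 9, that of core transcripts went from 12 to 2, and that of all genes past the limit from 8307 to 8671. The cause of these differences was not tested. The DDIT3 transcripts shared 171 to 470 counts per library, which limits their precision.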
